A study of Mus musculus with 6 samples.

Results

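The insulin-like growth factor (IGF) axis was followed through 10 genes, a ligand (Igf1), its receptor (Igf1r), the insulin receptor (Insr), the adaptors Irs1 and Irs2, and the binding proteins Igfbp2, Igfbp3, Igfbp4, Igfbp5 and Igfbp6. The members are all 26 probe sets, of 45037 on the array, whose only gene symbol in the platform annotation is one of these 10, out of 18193 genes with such a probe set. IGF1 acts through a receptor tyrosine kinase, which passes the signal to insulin receptor substrates and on to the PI3K, AKT and RAS pathways. The binding proteins hold IGFs outside the cell and are cut by proteases that release them. In ovarian theca cells, insulin and IGFs are known to add to the androgen output that luteinizing hormone drives, and in the rodent ovary granulosa cells are a main source of Igf1.

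RNA came from tdTomato-positive cells sorted from the ovaries of female Gli1-CreERT2; Rosa-LSL-tdTomato mice on the 129S6/SvEvTac strain at 2 months of age. The mesonephros-derived theca cells (n = 3 arrays) had been marked in the embryo, by tamoxifen at E12.5, at E14.5 and at E16.5, and the ovary-derived theca cells (n = 3 arrays) by tamoxifen given through the nursing dam on postnatal days 1 to 3. Both groups carry the same transgenes, and the mark falls on cells that used the Gli1 promoter at the time of tamoxifen, so origin and time of marking cannot be told apart. The labels do not say whether an array holds 1 animal or a pool, and the p-values reflect only how these arrays vary, which may be technical variation. Values are deposited linear signals, and changes are mesonephros-derived minus ovary-derived on the log2(signal + 16) scale with standard errors (SE) from limma. A signal of 99.4, the 40th percentile of all probe sets, served as the floor for the mean on that scale, and dimmer probe sets were not tested.

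The mesonephros-derived arrays were the more variable. On the log2 scale the median SD was 0.52 between mesonephros-derived and 0.23 between ovary-derived arrays over the 27022 probe sets tested. Replicate 3 of the mesonephros-derived cells was closer to the ovary-derived arrays (Pearson correlations of 0.946 to 0.950 over all probe sets) than to replicates 1 and 2 (0.876 and 0.896). Signal of the poly-A control RNAs, as a multiple of its ovary-derived mean, was 11.7, 11.6 and 2.28 on the mesonephros-derived arrays and 0.720 to 1.63 on the ovary-derived ones. That of the hybridization controls was also higher, at 3.41, 2.76 and 1.40 against 0.838 to 1.24. The ratio of 3′ to 5′ Gapdh signal, a sign of RNA quality, was 5.29, 3.48 and 2.63 on the mesonephros-derived arrays, against 1.94, 2.39 and 2.86 on the ovary-derived arrays. Its part in the results below was not tested. Of 8 theca markers 6 had a probe set, and the brightest probe set of each, among them those of the steroidogenic enzymes Hsd3b1 and Cyp17a1, lay above the floor on every array. Of 7 granulosa markers with a probe set, 6 lay above it on at least 1 array, and only Fshr, the receptor for follicle-stimulating hormone, lay below it on every array. Of 5 oocyte markers, 4 lay below it on every array. Foxl2, a transcription factor of granulosa and ovarian stromal cells, had signals of 3434 to 4626 on the mesonephros-derived and 3858 to 5330.0 on the ovary-derived arrays.

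No member passed the test. Of the 25 member probe sets bright enough to be tested, 0 reached an adjusted p of 0.05 in limma, and 4 had an unadjusted p under 0.05 (1 higher and 3 lower). Over all 27022 probe sets tested, 0.0148% passed the adjusted threshold and 12.9% had an unadjusted p under 0.05 (5.79% higher and 7.06% lower in mesonephros-derived cells). Non-overlapping groups were found for 6 of the 25, a share near the 21.3% of all probe sets tested. The one higher in mesonephros-derived cells belongs to Igfbp4, and the lower ones to Igf1r, Insr, Irs1 and Igfbp2, and of all probe sets tested 2382 were higher and 3366 lower without overlap. The median log2 change was −0.14 over the members and −0.11 over all probe sets tested, so a change near −0.11 is the level of the table. The smallest p was that of Igf1r, whose 5 probe sets each had the lower mean in mesonephros-derived cells, and the binding proteins lay on both sides of 0.

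**Figure D1:**
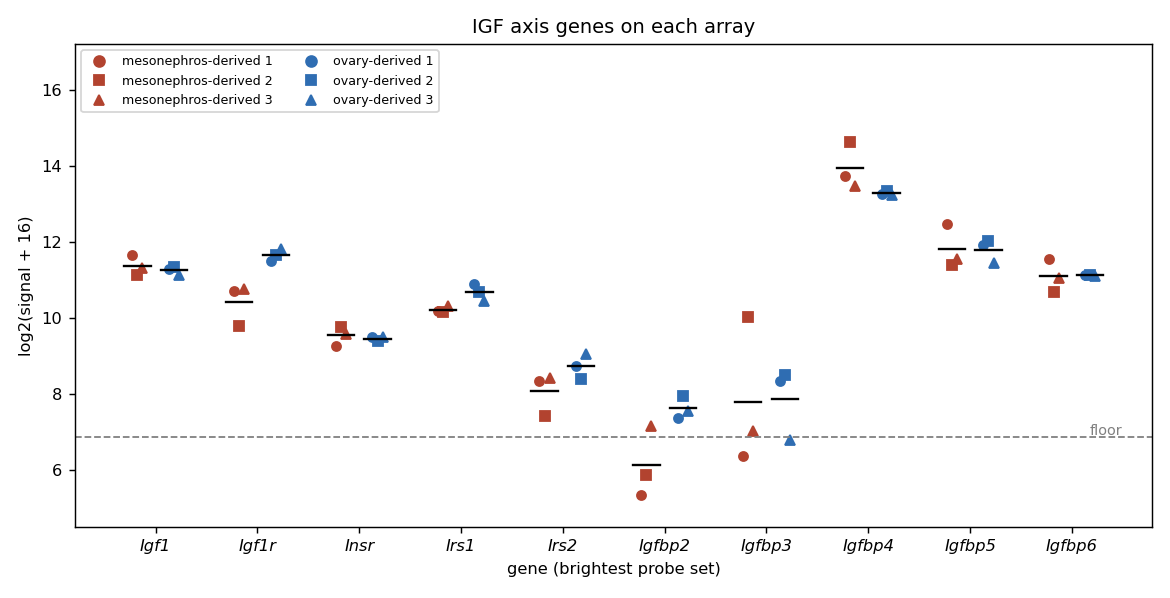
Signal of the brightest probe set of each IGF axis gene on every array, as log2(signal + 16), with mesonephros-derived arrays in red left of ovary-derived arrays in blue, bars at the group means and a dashed line at the floor. For Igf1r, Irs1 and Igfbp2 every red point lies below every blue point, and for Igfbp4 every red point lies above.

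The promoters of the receptor and the adaptors are shown because these genes had the lowest values of the change among the ligand, receptors and adaptors, on the brightest probe set of each gene. RefSeq (GRCm38.p6) gave promoter sequence for 9 of the 10 members, all but Insr. The lines below hold the 250 bases before the annotated start of Igf1r (chr7:67952007-67952256, plus strand), Irs1 (chr1:82291440-82291689, minus strand) and Irs2 (chr8:11008930-11009179, minus strand), each 5′ to 3′ on the gene's strand. Capitals mark matches on either strand to GGGCGG (a GC box) or CACGTG (an E-box), motifs chosen after the expression values were seen.
Igf1r: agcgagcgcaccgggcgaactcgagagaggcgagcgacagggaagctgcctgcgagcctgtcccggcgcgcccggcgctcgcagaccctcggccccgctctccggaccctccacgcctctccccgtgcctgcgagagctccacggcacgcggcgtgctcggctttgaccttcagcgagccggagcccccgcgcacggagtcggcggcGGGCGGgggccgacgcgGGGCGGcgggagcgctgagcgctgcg
Irs1: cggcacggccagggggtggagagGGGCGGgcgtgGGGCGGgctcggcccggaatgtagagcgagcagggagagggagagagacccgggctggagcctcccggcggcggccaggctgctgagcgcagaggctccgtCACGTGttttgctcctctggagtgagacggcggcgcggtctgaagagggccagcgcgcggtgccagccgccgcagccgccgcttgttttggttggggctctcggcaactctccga
Irs2: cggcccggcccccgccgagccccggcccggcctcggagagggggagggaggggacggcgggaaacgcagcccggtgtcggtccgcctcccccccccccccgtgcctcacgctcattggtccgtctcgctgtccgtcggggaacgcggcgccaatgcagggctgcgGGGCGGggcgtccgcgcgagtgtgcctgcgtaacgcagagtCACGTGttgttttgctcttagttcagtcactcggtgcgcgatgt

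The Igf1r window held 2 GC boxes and 0 E-boxes, that of Irs1 held 2 and 1, and that of Irs2 held 1 and 1. Over all 32851 RefSeq promoter windows of this length, 32.7% held the GC box and 6.02% the E-box on either strand. The forkhead motif GTAAACA, which FOXO factors downstream of insulin can bind, was in 3.17% of all windows and in 0 of these 3. The GC content was 77.6% for Igf1r, 72.4% for Irs1 and 72.8% for Irs2, against a median of 52.4%. The arrays measure RNA, and nothing in these data shows a factor at these windows.

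Igf1, the ligand, lay far above the floor in both groups. Its brightest probe set, 1452014_a_at, had signals of 3203, 2219 and 2529 in mesonephros-derived replicates 1, 2 and 3, against 2489, 2579 and 2233 in ovary-derived replicates 1, 2 and 3. Mesonephros-derived cells held both the highest array (replicate 1) and the lowest (replicate 2), and the ranges overlapped. Its log2 change was 0.11 ± 0.20 (SE), with a 95% interval of −0.35 to 0.56 and a limma adjusted p of 0.838. The other probe sets leaned the other way, 1419519_at at −0.14 ± 0.26, 1437401_at at −0.14 ± 0.27 and 1434413_at at −0.47 ± 0.33, and each overlapped between the groups (adjusted p 0.553 to 0.846). The dimmest of them, 1434413_at, had signals of 302, 604 and 506 on the mesonephros-derived arrays, against 739.9, 604 and 569.9 on the ovary-derived arrays. In mesonephros-derived replicate 1 it was the lowest of the 6 arrays while 1452014_a_at was the highest there, so the probe sets of Igf1 did not order the arrays alike. Without mesonephros-derived replicate 1 the change of 1452014_a_at was −0.04 and without replicate 2 that of 1419519_at was 0.03, both across 0.

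Macrophages and granulosa cells can also make Igf1, so their markers were read on the same arrays. The summed signal of 8 macrophage markers, on the brightest probe set of each, was 458, 6127 and 2592 in mesonephros-derived replicates 1, 2 and 3, against 4110.2, 6060.4 and 3989.8 in the ovary-derived ones. All 8 lay above the floor on at least 1 array, and their median log2 change was −1.21. Mesonephros-derived replicate 1, where 7 of the 8 lay below the floor on their brightest probe sets, had the highest signal of 1452014_a_at. That array was also the highest for Igf1 1419519_at (signal 1524), but the lowest for 1437401_at (749) and 1434413_at (302). The summed signal of 7 granulosa markers was 4895 to 6524 on the mesonephros-derived and 4861 to 6480.2 on the ovary-derived arrays. These ranges overlap, with Foxl2 as most of the sum. Within the list, Amh read 511, 234 and 33.4 in mesonephros-derived replicates 1, 2 and 3, against 20.7, 28.1 and 34.7 in the ovary-derived ones. Nr5a2 went the other way, at 16.2, 66.3 and 15.6 against 243.6, 185 and 95.3, and neither marker was bright enough to be tested. In sorted bulk RNA, fewer cells of a type and less RNA per cell cannot be told apart. The part of these cells in the Igf1 signal was not tested.

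Igf1r, the receptor tyrosine kinase for IGF1 and IGF2, had the smallest p of the members. Its brightest probe set, 1428967_at, had signals of 1646, 859.6 and 1711 in mesonephros-derived replicates 1, 2 and 3, against 2841, 3191 and 3541 in ovary-derived replicates 1, 2 and 3. Every mesonephros-derived value lay below every ovary-derived one, and mesonephros-derived replicate 2 was the lowest. The signal averaged 1405 ± 474 in mesonephros-derived cells and 3191 ± 349.8 in ovary-derived cells (means ± SD over the 3 arrays of each). The log2 change was −1.23 ± 0.28 (SE), a ratio of 0.426 on that scale, with a 95% interval of −1.87 to −0.60 and a limma adjusted p of 0.212. It ranked 211 of 27022 probe sets by p, and did not pass. With arrays weighted by their noise the change was −1.14 ± 0.23 and did pass (limma adjusted p = 0.0262), in a fit that called 252 probe sets against 4 without weights. The weight of ovary-derived replicate 2 was 6.08, and every other array had a weight between 0.21 and 1.46.

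The other Igf1r probe sets had the same sign and smaller or untested changes. 1452108_at had signals of 1604, 1359 and 1901 on the mesonephros-derived arrays, against 2328, 2481 and 2526 on the ovary-derived arrays. The groups again did not overlap, and its log2 change was −0.60 ± 0.20 (SE, limma adjusted p = 0.311), and −0.29 with poly-A control signal in the model. 1452982_at had signals of 1260.4, 525 and 878 on the mesonephros-derived arrays, against 1199, 1122 and 1113 on the ovary-derived arrays, with mesonephros-derived replicate 1 the highest of all and replicate 2 the lowest, and its log2 change was −0.45 ± 0.32. For 1426565_at the signals were 452, 615 and 560.1 on the mesonephros-derived arrays, against 559, 700.4 and 1073 on the ovary-derived arrays, with a change of −0.47 ± 0.31 and overlap between the groups. The faint 1446303_at had a mean on the log2 scale just below the floor and was not tested. It read 40.9, 29.8 and 104 on the mesonephros-derived arrays, against 154, 123 and 147 on the ovary-derived arrays, and only mesonephros-derived replicate 3 among its group was above the floor. The annotation gives 1428967_at and 1452982_at the same source sequence, and 1452108_at and 1426565_at another shared one, so the 5 probe sets stand for 3 source sequences and are not independent. Within each of these pairs 1 probe set had groups apart and the other had groups that overlap, and whether their changes differ was not tested.

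**Figure D2:**
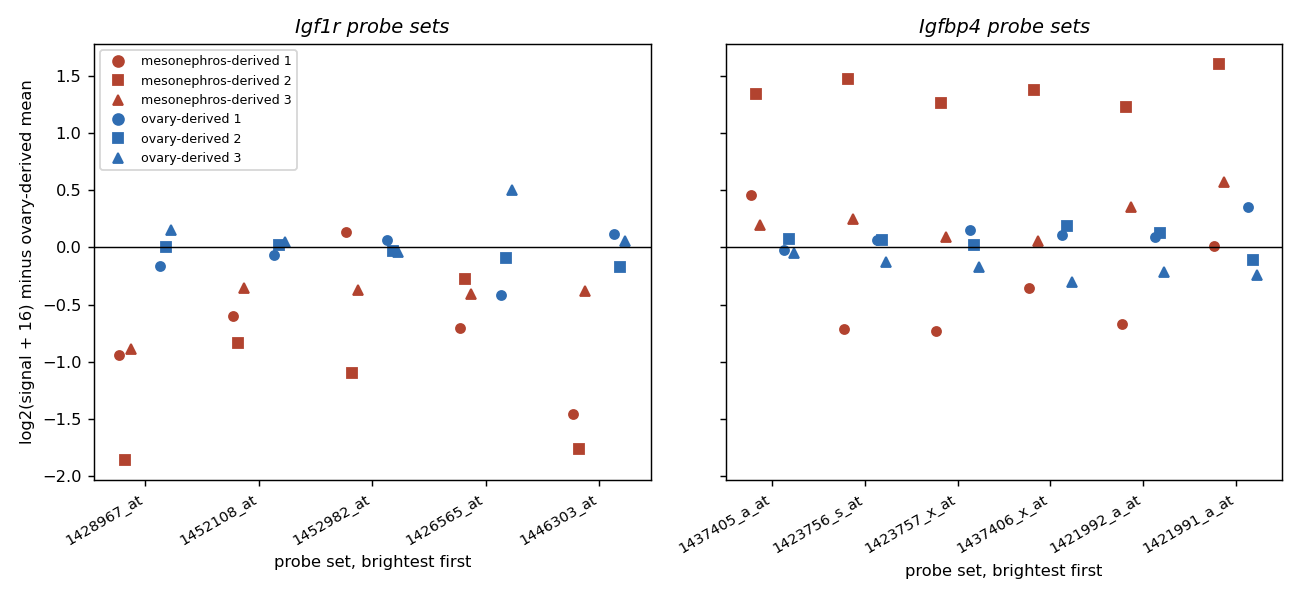
Every probe set of Igf1r (left) and Igfbp4 (right) on each array, as log2(signal + 16) minus the mean of the ovary-derived arrays, with mesonephros-derived arrays in red left of ovary-derived arrays in blue. Mesonephros-derived replicate 2 (red squares) is highest on all 6 Igfbp4 probe sets and lowest on every Igf1r probe set but 1426565_at.

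The change of 1428967_at stayed on 1 side of 0 with any array left out, at −1.40 without mesonephros-derived replicate 3 and −0.92 without replicate 2. With the poly-A control signal added to the model it was −0.85 ± 0.54 (SE) and did not pass. The genes most like 1428967_at over the 6 arrays, among 11702 others on their brightest tested probe sets, were Rgs3, Unc119 and Zfp626. After each was centred on its own mean, their log2 values differed from those of Igf1r by 0.10, 0.10 and 0.12 on average, and their own changes were −1.06, −1.29 and −0.98. For Igf1 (1452014_a_at) the nearest were Fam32a, Ranbp6 and Eml5, at mean differences of 0.034, 0.036 and 0.039 and with changes of 0.07, 0.05 and 0.09.

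Insr, which binds insulin and with lower affinity the IGFs, had 1 probe set above 0 and a pair below it. Its brightest probe set, 1421380_at, had signals of 598, 855 and 749 on the mesonephros-derived arrays, against 705, 649 and 698 on the ovary-derived arrays. The ranges overlapped and the log2 change was 0.09 ± 0.26 (SE, limma adjusted p = 0.900). 1434446_at had signals of 479, 479 and 434 on the mesonephros-derived arrays, against 534, 659 and 630.4 on the ovary-derived arrays, and here all mesonephros-derived values were the lower. That difference was small beside its error, at −0.37 ± 0.27 (adjusted p = 0.566). 1450225_at, which shares its source sequence with 1421380_at, was at −0.40 ± 0.30 with overlap. The 95% intervals were −0.49 to 0.66 for 1421380_at, −0.98 to 0.24 for 1434446_at and −1.09 to 0.28 for 1450225_at.

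**Figure D3:**
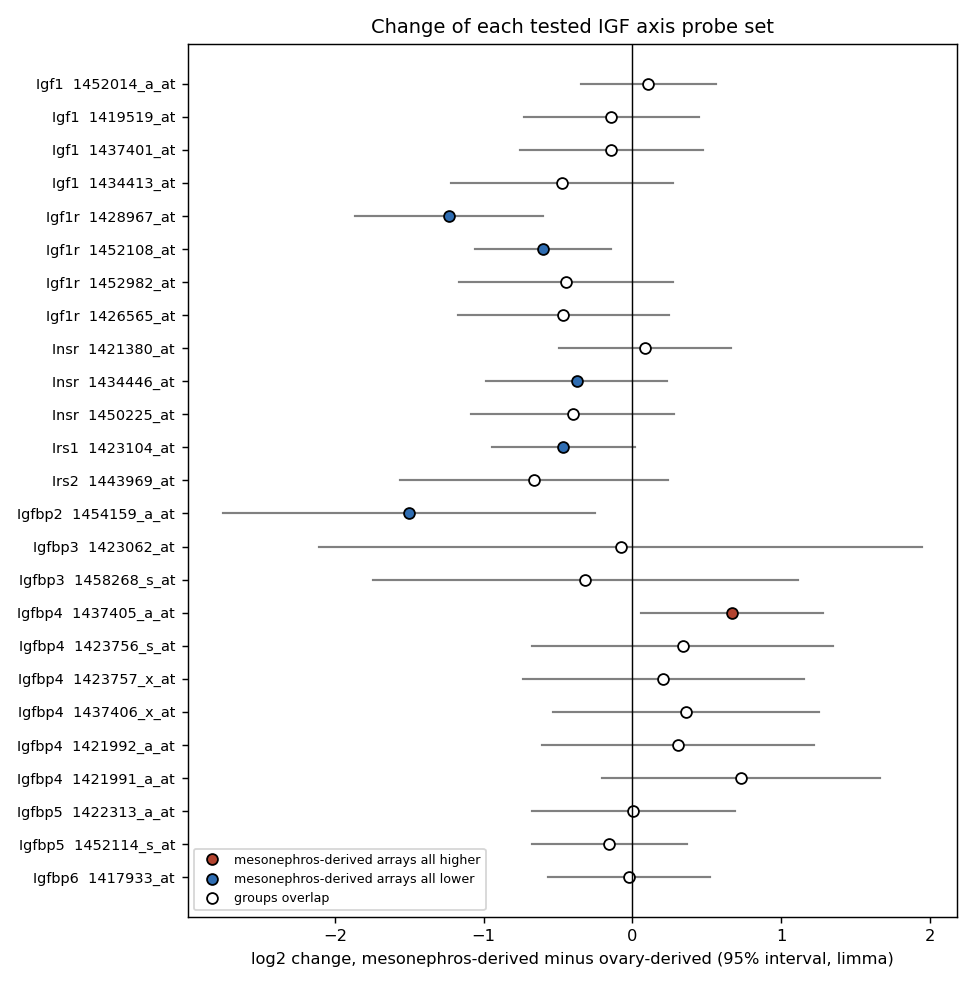
Log2 change (mesonephros-derived minus ovary-derived) of the 25 tested member probe sets, with 95% intervals from limma. Red points mark probe sets whose mesonephros-derived arrays were all higher, blue points those whose arrays were all lower, and open points those with overlap. Intervals of Igf1r 1428967_at and 1452108_at and of Igfbp2 lie below 0, that of Igfbp4 1437405_a_at lies above 0, and the remaining 21 cross it.

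Irs1 and Irs2, the docking proteins that carry the signal of both receptors to PI3K, each had 1 probe set. Irs1 had signals of 1133, 1113 and 1242 in mesonephros-derived replicates 1, 2 and 3, against 1868, 1619 and 1374 in ovary-derived replicates 1, 2 and 3. The groups did not overlap, and ovary-derived replicate 3 came nearest to the mesonephros-derived values. Its log2 change was −0.46 ± 0.21 (SE, limma adjusted p = 0.401), and it ran from −0.58 to −0.36 with single arrays left out and was −0.16 with poly-A control signal in the model. Irs2 had signals of 309.7, 154 and 326 in mesonephros-derived replicates 1, 2 and 3, against 409, 318 and 515 in ovary-derived replicates 1, 2 and 3. Mesonephros-derived replicate 3 lay above ovary-derived replicate 2, so the groups overlapped, and the change was −0.66 ± 0.40 (adjusted p = 0.498). Replicate 2 of the mesonephros-derived cells carried much of it, since the change was −0.34 without that array, and it was −0.34 with poly-A control signal in the model and −0.38 with array weights.

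Igfbp4, which binds both IGFs and mostly restrains them, was the one member gene with a probe set higher in every mesonephros-derived array. The brightest, 1437405_a_at, had signals of 13601, 25191 and 11353 in mesonephros-derived replicates 1, 2 and 3, against 9697, 10382 and 9566 in ovary-derived replicates 1, 2 and 3. All 3 mesonephros-derived values lay above the ovary-derived ones, which were close together, and replicate 2 stood far above the rest. The log2 change was 0.67 ± 0.27 (SE, limma adjusted p = 0.363) with a 95% interval of 0.06 to 1.28. Without mesonephros-derived replicate 2 it was 0.33, with quantile normalization 0.17, and with poly-A control signal in the model 0.015.

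The other 5 Igfbp4 probe sets showed the same array standing apart. 1423756_s_at had signals of 2245, 10316 and 4386 on the mesonephros-derived arrays, against 3862, 3857 and 3378 on the ovary-derived arrays. Mesonephros-derived replicate 2 was the highest array and replicate 1 the lowest, so the ranges overlapped. Log2 changes of these 5 lay between 0.21 and 0.73 (limma adjusted p 0.477 to 0.851), and for 4 of the 5 the sign turned without mesonephros-derived replicate 2, to between −0.32 and −0.15. The exception was 1421991_a_at, at 0.29. These 6 probe sets come as 3 pairs that share a source sequence, and 3 of the 6 carry a suffix for possible cross-hybridisation (_s_at or _x_at). On 1437405_a_at mesonephros-derived replicate 1 lay above the ovary-derived arrays, and on 4 of the other 5 it lay below them.

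Igfbp2, a binding protein with an affinity for IGF2, was near the floor. Its only probe set, 1454159_a_at, had signals of 24.7, 42.0 and 126 in mesonephros-derived replicates 1, 2 and 3, against 149, 231 and 172 in ovary-derived replicates 1, 2 and 3. The groups did not overlap, and mesonephros-derived replicates 1 and 2 lay below the floor of 99.4. The log2 change was −1.50 ± 0.55 (SE, limma adjusted p = 0.345), the largest of the members in size and the one with the widest interval among those that do not cross 0, −2.75 to −0.25. It was −1.12 without mesonephros-derived replicate 1, and with poly-A control signal in the model −0.0014. Without replicate 3 it was −2.02, but the probe set was then too dim to be tested, with the remaining mesonephros-derived arrays below the floor.

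Igfbp5, its genomic neighbour, with 0 protein-coding genes between them on chromosome 1 of the RefSeq table, was bright on all arrays. 1422313_a_at had signals of 5684, 2637 and 2951 on the mesonephros-derived arrays, against 3854, 4131 and 2751 on the ovary-derived arrays. The ranges overlapped, with mesonephros-derived replicate 1 the highest, and the log2 change was 0.01 ± 0.30 (SE, limma adjusted p = 0.995). Its other probe set, 1452114_s_at, stood at −0.16 ± 0.23, again with overlap. Igfbp6, a binding protein that prefers IGF2, had signals of 2970.5, 1626 and 2097 on the mesonephros-derived arrays, against 2224, 2207 and 2165 on the ovary-derived arrays. Its ovary-derived arrays lay close together, inside the mesonephros-derived range, and the log2 change was −0.02 ± 0.24 with a 95% interval of −0.56 to 0.52.

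Igfbp3, the main carrier of IGFs in blood, had the largest SE of the tested members. 1423062_at had signals of 65.7, 1024 and 113 in mesonephros-derived replicates 1, 2 and 3, against 309, 343 and 94.4 in ovary-derived replicates 1, 2 and 3. One mesonephros-derived array was the highest of the 6 and another was the lowest. The log2 change of −0.08 ± 0.90 (SE, limma adjusted p = 0.976) has a 95% interval of −2.11 to 1.95, and it moved from −1.19 without mesonephros-derived replicate 2 to 0.64 without replicate 1. Its other probe set, 1458268_s_at, had signals of 179, 242 and 49.4 on the mesonephros-derived arrays, against 191, 289.6 and 84.3 on the ovary-derived arrays, with a log2 change of −0.32 ± 0.63. Endothelial cells are known to express Igfbp3, and the summed signal of 7 endothelial markers was 2999, 5595 and 3418 in mesonephros-derived replicates 1, 2 and 3, against 6291, 6034 and 4233 in the ovary-derived ones. Mesonephros-derived replicate 2 was the highest of its group for both. Ovary-derived replicates 1 and 2 had higher endothelial sums than that array and lower signals of 1423062_at, while on 1458268_s_at ovary-derived replicate 2 lay above it. The markers in the sum did not order the arrays alike, with Tek highest on mesonephros-derived replicate 2 (1010) and Emcn on replicate 1 (1973). Mesonephros-derived replicate 1 had the lowest sum and the lowest signal of 1423062_at, and on 1458268_s_at it lay above mesonephros-derived replicate 3. All 7 endothelial markers lay above the floor on at least 1 array, their median log2 change was −1.04, and their part in the Igfbp3 signal was not tested.

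Sums over the theca and the smooth muscle markers did not overlap between the groups. The summed signal of the 6 theca markers was 39101 to 50625 on the mesonephros-derived and 26429.7 to 32815 on the ovary-derived arrays, with 0 called and a median log2 change of 0.62. The list did not lie on 1 side, with Cyp17a1 at 2.67, Nr5a1 at −0.43 and Ptch1 at −0.08 on their brightest probe sets. The summed signal of 7 smooth muscle markers was 67033 to 84386 on the mesonephros-derived and 28202 to 32007 on the ovary-derived arrays, and all 7 lay above the floor on every array on their brightest probe sets. Of the 7, Myh11 and Tagln were called higher. The part of either list in the changes of Igf1r and Igfbp4 was not tested. Mesonephros-derived replicate 2, which stood apart for Igfbp4, had a smooth muscle sum of 84386, the highest of the 6 arrays. Replicate 1 had the next highest sum, 79601. It was the lowest of the 6 arrays on Igfbp4 1423756_s_at, 1423757_x_at, 1437406_x_at and 1421992_a_at, which did not order the arrays as the sums did. On the brightest Igfbp4 probe set, 1437405_a_at, mesonephros-derived replicates 2, 1 and 3 read 25191, 13601 and 11353. These values lay above the ovary-derived arrays and in the order of the mesonephros-derived sums.

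**Figure D4:**
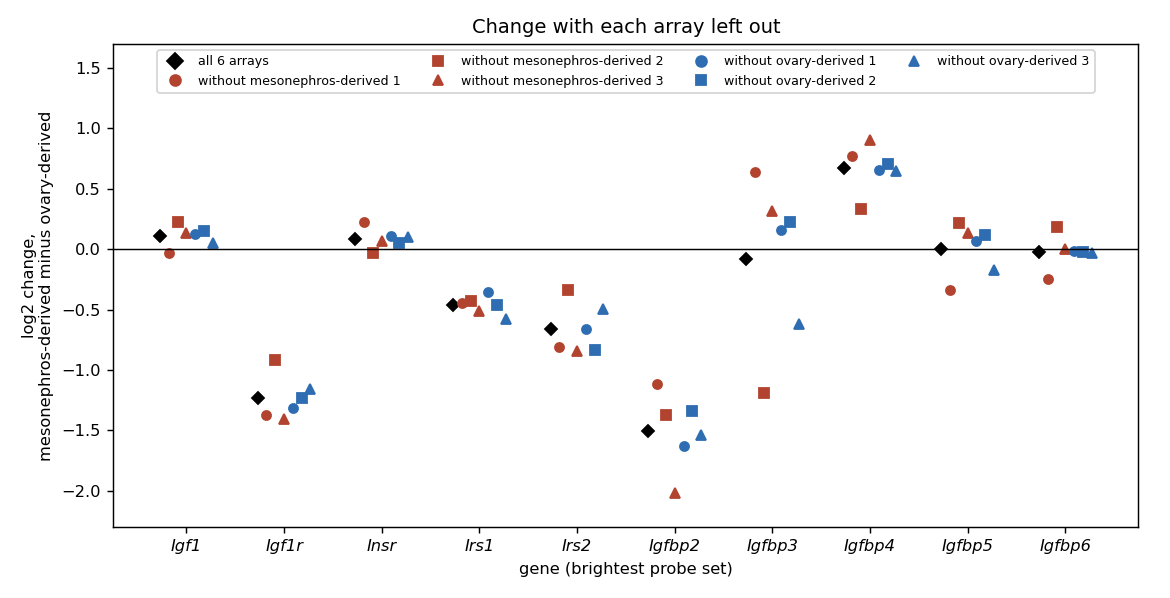
Log2 change (mesonephros-derived minus ovary-derived) of the brightest probe set of each member with all 6 arrays (black) and with each array left out in turn (red for a mesonephros-derived array left out, blue for an ovary-derived one). Igf1r, Irs1, Irs2 and Igfbp2 stay below 0 and Igfbp4 above 0 in all 7, and Igf1, Insr, Igfbp3, Igfbp5 and Igfbp6 cross 0.

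Single arrays set the extremes of the members. Mesonephros-derived replicate 1 was the lowest of the 6 arrays for 12 of the 25 tested member probe sets (48.0%), against 35.7% of all probe sets tested. Replicate 2 was the highest for 8 and the lowest for 9 of the 25, against 23.8% and 24.7% of all. Those 8 include all 6 probe sets of Igfbp4, which come from 3 source sequences and are not independent. Igfbp4 probe sets were also among the 12 of replicate 1. Replicate 3 was the highest for 1 and the lowest for 2, against 13.9% and 10.7% of all. The SD between arrays was larger in mesonephros-derived cells for 22 of the 25 member probe sets and for 82.5% of all probe sets tested.

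The rest of the pathway was read through 88 further genes in 8 groups, of which 77 had a probe set with 1 symbol and 67 had at least 1 bright enough to be tested. Of their 169 tested probe sets 0 passed in limma, with 26 at an unadjusted p under 0.05 (10 higher and 16 lower). Over all probe sets tested 0.0148% passed and 12.9% had an unadjusted p under 0.05. Over these 169 probe sets 71 lay above 0 and 98 below, with a median log2 change of −0.09, against −0.11 over all probe sets tested. Of all probe sets tested 58.0% lay below 0, which is the level for the probe set counts here. On the brightest probe set of each of the 67 genes the balance turned, with 39 above 0, 28 below and a median of 0.05, against 43.5% above 0 and a median of −0.08 over the 11703 genes tested in the same way. The balance also depended on this choice in the TOR arm (18 of 41 probe sets above 0, but 11 of 16 genes), the PI3K and AKT arm (19 of 39, but 10 of 15) and among the receptor-proximal genes (16 of 34, but 9 of 13). Values below 0 were the majority on both counts in the RAS and MAPK arm (21 of 27 probe sets and 8 of 10 genes) and the growth hormone arm (9 of 10 and 4 of 5), and 0 probe sets of either passed the test.

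Outside the cell, Stc1 had the largest change in size of these 67 genes on their brightest probe sets, and Igfbp7 the smallest p. Igfbp7, a binding protein with low affinity for IGFs, had signals of 39574, 32468 and 21417 in mesonephros-derived replicates 1, 2 and 3, against 13609, 15134 and 16725 in ovary-derived replicates 1, 2 and 3. The groups did not overlap, and the log2 change was 1.00 ± 0.23 (SE, limma adjusted p = 0.212), with its other probe sets at 0.19 and 0.37. Stc1, a secreted glycoprotein that inhibits the IGFBP protease pappalysin, had signals of 978, 87.8 and 393 in mesonephros-derived replicates 1, 2 and 3, against 2213, 1529 and 1971 in ovary-derived replicates 1, 2 and 3. Every mesonephros-derived value lay below the ovary-derived ones and mesonephros-derived replicate 2 was below the floor. Its change of −2.45 ± 0.67 did not pass (adjusted p = 0.270), and did with array weights (−2.37, adjusted p = 0.00749) or without mesonephros-derived replicate 1 (−3.20, adjusted p = 0.0353). Those fits called 252 and 104 probe sets of the whole table, against 4 in the main fit.

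Htra1, a serine protease that cuts some IGFBPs, stood at 0.74 ± 0.31 without overlap (limma adjusted p = 0.374), and its highest array was mesonephros-derived replicate 2, as for Igfbp4. Its other probe set was at 0.25 with overlap. Pappa, the pappalysin that cuts Igfbp4, had signals of 96.2, 112 and 52.4 on the mesonephros-derived arrays, against 27.3, 37.2 and 46.6 on the ovary-derived arrays, with 1 mesonephros-derived array above the floor, and was not tested. Igfbp1, Igfals and Igfbpl1 lay below the floor on all arrays.

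Of the other ligands and receptors, Igf2 had signals of 75.7, 85.7 and 689.9 on the mesonephros-derived arrays, against 279, 194 and 439 on the ovary-derived arrays. Mesonephros-derived replicate 3 was the highest of the 6 and replicates 1 and 2 were below the floor, and the log2 change was −0.70 ± 0.75 (SE, limma adjusted p = 0.702). Igf2r, which clears IGF2, had changes of 0.14 ± 0.27 on its brighter and −0.74 ± 0.28 on its dimmer probe set, which had no overlap (limma adjusted p = 0.352). Insrr, the receptor related to the insulin receptor, had signals of 235, 249 and 203 on the mesonephros-derived arrays, against 67.0, 145 and 128 on the ovary-derived arrays, with a log2 change of 0.97 ± 0.43 (adjusted p = 0.387).

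Near the receptors, 13 genes were tested. Shc1, an adaptor to RAS, stood at 0.53 ± 0.21 and Socs2, a brake on growth hormone signalling, at 0.65 ± 0.28, both without overlap (limma adjusted p 0.363 and 0.384). Socs3, a cytokine-induced inhibitor that can target the IRS proteins, had signals of 6723, 1729 and 1055 in mesonephros-derived replicates 1, 2 and 3, against 4809, 5071 and 7094 in ovary-derived replicates 1, 2 and 3. Mesonephros-derived replicate 1 lay inside the ovary-derived range and replicates 2 and 3 far below it, for a change of −1.26 ± 0.56 (SE, limma adjusted p = 0.388). Its other probe sets were at −1.25 and −1.74. All 3 passed without mesonephros-derived replicate 1, at −2.03, −1.91 and −2.33 (adjusted p 0.0197 to 0.0353), and with array weights. Grb10, an adaptor that dampens both receptors, stood at 0.05 ± 0.17 with a 95% interval of −0.33 to 0.44.

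In the PI3K and AKT arm, Inppl1, a lipid phosphatase, stood at 0.80 ± 0.35, Pik3r2, a regulatory subunit of PI3K, at 0.67 ± 0.37 and Inpp5d, the blood cell lipid phosphatase, at 0.71 ± 0.44 (limma adjusted p 0.384 to 0.503). Akt1 stood at 0.01 ± 0.23 and Foxo1, the factor that AKT keeps out of the nucleus, at −0.13 ± 0.20, with limma adjusted p-values of 0.992 and 0.809. In the TOR arm, 3 genes with known roles in holding back the TOR complex had the smallest p. Akt1s1 stood at 1.54 ± 0.44, Ddit4 at 0.88 ± 0.26 and Sesn3 at −0.85 ± 0.24, with adjusted p-values of 0.273 to 0.286. The first pair were higher and Sesn3 lower, each without overlap, so these 3 inhibitors did not lie on 1 side. Ddit4 had signals of 6435, 4046 and 3378 on the mesonephros-derived arrays, against 2059.6, 2337 and 2924 on the ovary-derived arrays.

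In the RAS and MAPK arm, Spry2, a feedback inhibitor of the arm, stood at −0.45 ± 0.22, Nras at −0.52 ± 0.26 and the kinase Braf at −0.48 ± 0.24 (limma adjusted p 0.417 to 0.429). Ghr, the growth hormone receptor, had changes of −0.19 ± 0.20, −0.73 ± 0.30 and −0.63 ± 0.27 on its 3 probe sets, brightest first (limma adjusted p 0.364 to 0.694). Its signalling factors Stat5a and Stat5b stood at −0.35 ± 0.34 and −0.18 ± 0.28. Igf2bp3, which binds Igf2 mRNA, stood at 0.23 ± 0.33.

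**Figure D5:**
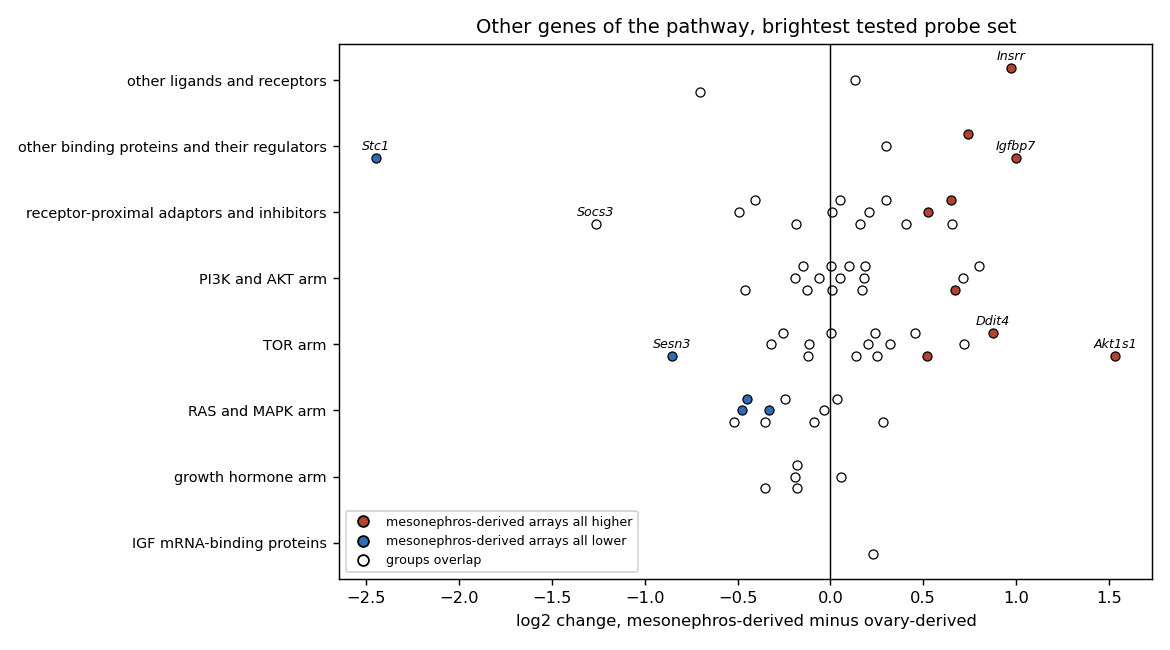
Log2 change (mesonephros-derived minus ovary-derived) of the brightest tested probe set of 67 other genes of the pathway, by role. Red points had all mesonephros-derived arrays higher, blue points all lower, and open points overlap. The outermost genes are named, with Stc1 at −2.45 and Akt1s1 at 1.54 farthest from 0 on either side.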

How the data were processed

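Gene expression was measured in 6 arrays, 3 per group. The authors deposited 1 linear probe set intensity per probe set and array. The submitters' processing notes name MAS5, with no version or settings given in the sources used here. Trimmed by 2% on either side, the deposited intensities averaged 500.0 on each array. RNA was amplified from a fixed volume per sample, per the labels' protocols. The labels number the samples alike in both groups.

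Control probe sets (64) were removed. The platform annotation lists a single gene symbol for 34945 of the remaining 45037, several for 932 and none here for 9160. All 10 members matched the RefSeq gene table (GRCm38.p6). Intensities were taken as log2(signal + 16), on which a fold understates the change of dim probe sets. Probe sets whose mean on that scale lay below its 40th percentile (signal 99.4) were not tested. Testing used limma 3.58.1 in R 4.3.3 (lmFit, eBayes with an intensity trend), with Benjamini-Hochberg adjustment over 27022 probe sets and a threshold of 0.05. The procedure was tested on simulated data with 200 changed probe sets. No 2 arrays were identical, and the number of arrays limits the precision.

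Members and lists were chosen with earlier results of these data known. The text names all members, the up to 3 genes of each pathway list with the smallest unadjusted p on their brightest probe set, and Igf2, Igf2r, Pappa, Grb10, Akt1 and Foxo1, and also the 3 genes of most similar pattern to Igf1 and Igf1r. Markers are named where below the floor on all arrays or among the 3 brightest of their list, with Cyp17a1, Nr5a1, Amh and Nr5a2 named besides. One further gene of the rule is not reported here. Igfbp1, Igfals and Igfbpl1, outside the rule, are named only as below the floor, and Myh11 and Tagln as called. Alternatives covered the pseudocount, floor, scaling, probe set choice, variance model, array weights, replicate block, spike covariate and each array left out. The 27 poly-A spike probe sets gave the covariate.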

Additional observations from a re-analysis of the deposited data

Results flagged for a closer look

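The poly-A spike probe sets, which stand outside the comparison of genes, read above every ovary-derived array on the mesonephros-derived arrays, with ratios to the ovary-derived mean of 11.7, 11.6 and 2.28 in replicates 1, 2 and 3, against at most 1.63. With that signal in the model 0 of the 25 member probe sets had an unadjusted p under 0.05, against 4 without it. Over all 27022 probe sets tested the count fell from 3473 to 661, so the loss was not particular to the members. The spike signal went with the group, so this fit cannot tell it apart from origin. The SE also grew, for Igf1r 1428967_at from 0.28 to 0.54.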

How the results depend on the processing

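The whole table gave 4 calls at an adjusted p of 0.05 in limma. It gave 2 with log2(signal + 1), with no floor or with median centring, 7 with log2(signal + 64), quantile normalization or the replicate block, 8 with the floor at the 60th percentile, 1 with eBayes without the intensity trend, 252 with array weights (151 higher and 101 lower), and 0 with the poly-A spike covariate, and 0 to 104 with 1 array left out (104 without mesonephros-derived replicate 1, 0 without mesonephros-derived replicate 3 or any ovary-derived array). The cause was not tested. The spike covariate left 661 probe sets at an unadjusted p under 0.05, against 3473. Of the members 1 was called with array weights (Igf1r 1428967_at) and 0 under the other 18 alternatives, and of the other pathway genes 4 probe sets were called with array weights and 0 to 4 with 1 array left out. Of the members 16 of 25 lay below 0, and with 1 probe set per gene 6 of 10, since fewer are tested, and 12 to 20 with 1 array left out.

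Same-numbered arrays did not deviate together (correlations of their deviations from the group means 0.02, 0.06 and −0.0075), so the replicate block is given only here, and under it 0 members passed. Median centring moved the median log2 change of all probe sets tested to −0.03 and the share of lower ones to 52.4%, against 58.0%.

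Of the 25 tested member probe sets, 12 kept their sign under every alternative in which they were tested. Among them were the 4 tested ones of Igf1r and those of Irs1, Irs2 and Igfbp2, the last tested in only 14 of 19. The other 13 turned at least once, none past the threshold. With single arrays left out, log2 changes ran from −0.25 to 0.18 for Igfbp6, −0.036 to 0.23, −0.35 to 0.028 and −0.28 to 0.081 for Igf1 1452014_a_at, 1419519_at and 1437401_at, −0.029 to 0.22 for Insr 1421380_at, −0.16 to 0.80, −0.23 to 0.86, −0.32 to 0.68 and −0.15 to 0.72 for Igfbp4 1421992_a_at, 1423756_s_at, 1423757_x_at and 1437406_x_at, −0.34 to 0.22 for Igfbp5 1422313_a_at, and −1.19 to 0.64 and −0.76 to 0.28 for Igfbp3 1423062_at and 1458268_s_at. The sign turned without mesonephros-derived replicate 2 for the Igfbp4 probe sets, Insr, Igfbp6 and Igf1 1419519_at, without replicate 1 for Igf1 1452014_a_at and 1437401_at, Igfbp5 and Igfbp3 1423062_at, without replicate 3 for Igfbp6 and both Igfbp3 probe sets, and without an ovary-derived array for Igfbp5 (replicate 3), Igfbp3 1423062_at (replicates 1 and 2) and 1458268_s_at (replicate 2). With the spike covariate, Igf1 1437401_at turned to 0.47, Igfbp5 1422313_a_at to −0.15 and 1452114_s_at to 0.47. Quantile normalization turned Igfbp5 1422313_a_at to −0.12 and Igfbp3 1423062_at to 0.067, array weights Igfbp5 1422313_a_at to −0.28, log2(signal + 64) Igfbp3 1423062_at to 0.018, and median centring Igfbp3 1423062_at to 7.8e-05 and Igfbp6 to 0.056. The cause was not tested. Without a turn of sign, quantile normalization took Igfbp4 1437405_a_at to 0.17 (0.67 otherwise), and the spike covariate took Irs1 to −0.16, Irs2 to −0.34, Igf1r 1452108_at to −0.29 and Igfbp2 to −0.0014. Signal near the floor limits Igfbp2 and Igfbp3.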
